A study of Mus musculus with 10 samples.

Results

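Basement membranes are thin sheets of extracellular matrix beneath epithelium and endothelium and around muscle, fat and nerve. Laminins, heterotrimers of an alpha, a beta and a gamma chain, form a polymer at the cell surface, type IV collagen forms a second network, and nidogen and the heparan sulfate proteoglycan perlecan connect the networks. In tumours these sheets surround blood vessels, and matrix proteases cut them when cells invade.

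The genes described here encode 10 basement membrane components and were chosen by name: the laminin chain genes Lamc1, Lamb2, Lama4 and Lama5, the nidogen gene Nid1, the collagen genes Col4a1, Col4a2, Col15a1 and Col18a1, and Hspg2, which encodes perlecan. All 10 were among the 46603 genes counted, each on 1 row. RNA was sequenced from macrophages of 4T1 tumours; 4T1 is a mouse mammary carcinoma line used as a graft model of breast cancer. Viable cells carrying CD11B and F4/80, surface proteins of mouse macrophages, were sorted into PDPN-positive cells, called PoEMs, and PDPN-negative cells, called non-PoEMs. PDPN is podoplanin, a surface glycoprotein and a standard marker of lymphatic vessels that fibroblasts can also carry. Each of 5 tumours, numbered 1, 2, 4, 5 and 6, gave a PoEM library and a non-PoEM library. No label gave an agent, a genotype, an age or a host strain. None said whether each tumour came from its own mouse, so p-values refer to these tumours and cannot be read as covering separate mice. The study addressed PDPN-positive macrophages in lymphatic vessel growth and matrix remodelling, and the comparison here asks whether basement membrane transcripts differ between the fractions.

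Libraries held 12597829 to 15406722 counts. Levels are given as CPM, counts scaled to a common library total, with TMM, a method that corrects the totals for composition. Pdpn followed the labels, at 214.5 ± 22.9 CPM in PoEMs and 19.3 ± 7.33 CPM in non-PoEMs (SD, n = 5 each). Itgam and Adgre1, which encode CD11B and F4/80, stood at 1384 ± 59.4 and 526.5 ± 70.8 CPM in PoEMs, against 1185 ± 69.4 and 572.7 ± 62.2 CPM in non-PoEMs. The pan-leukocyte gene Ptprc averaged 615.5 ± 47.1 CPM in PoEMs and 779.6 ± 115.5 CPM in non-PoEMs. In the edgeR fit without the pairing described below, Itgam was called higher in PoEMs (log2 fold change 0.22, adjusted p = 0.0347) and Ptprc lower (-0.34, adjusted p = 0.0345). Adgre1 was not called (adjusted p = 0.464). Macrophage markers, 10 genes summed, were abundant in both fractions, with levels of 18609 to 23058 CPM in PoEMs and 18306 to 21328 CPM in non-PoEMs.

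In a fit without the pairing by tumour, Nid1, Lama4, Lamc1 and Lamb2 were called higher in PoEMs, and Lama5 lower. With the pairing, 8 of the 10 genes were called higher and 2 lower. Both fits used edgeR's quasi-likelihood test over 13595 genes, with a call at a Benjamini-Hochberg adjusted p under 0.05. All 10 genes passed the filter on low counts. Without the pairing, 4 of the 10 genes were called higher, where 6.83% of all genes tested were. In that fit 1 of the 10 was called lower, where 6.77% of all genes were. Its p-values rest on the spread between libraries within a fraction. Because both fractions came from the same tumours, the fit was also made with the tumour as a block. The block removes differences between tumours, so these p-values rest on the spread of the within-tumour differences. The blocked fit called 8 of the 10 higher and 2 lower, against 13.8% of all genes higher and 14.3% lower. The CPM ranges of the fractions did not overlap for 3 genes higher in PoEMs (Lama4, Lamc1 and Nid1) and for 1 lower gene (Lama5), where 5.38% of all genes tested had higher and 5.13% had lower ranges without overlap. PoEMs were higher in all 5 tumours for 7 of the 10 genes and lower in all 5 for 1, where 17.4% of all genes tested were higher and 17.6% lower in all 5. The median log2 fold change over the 10 genes was 0.44, beside 0.01 over all genes tested.

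**Figure D1:**
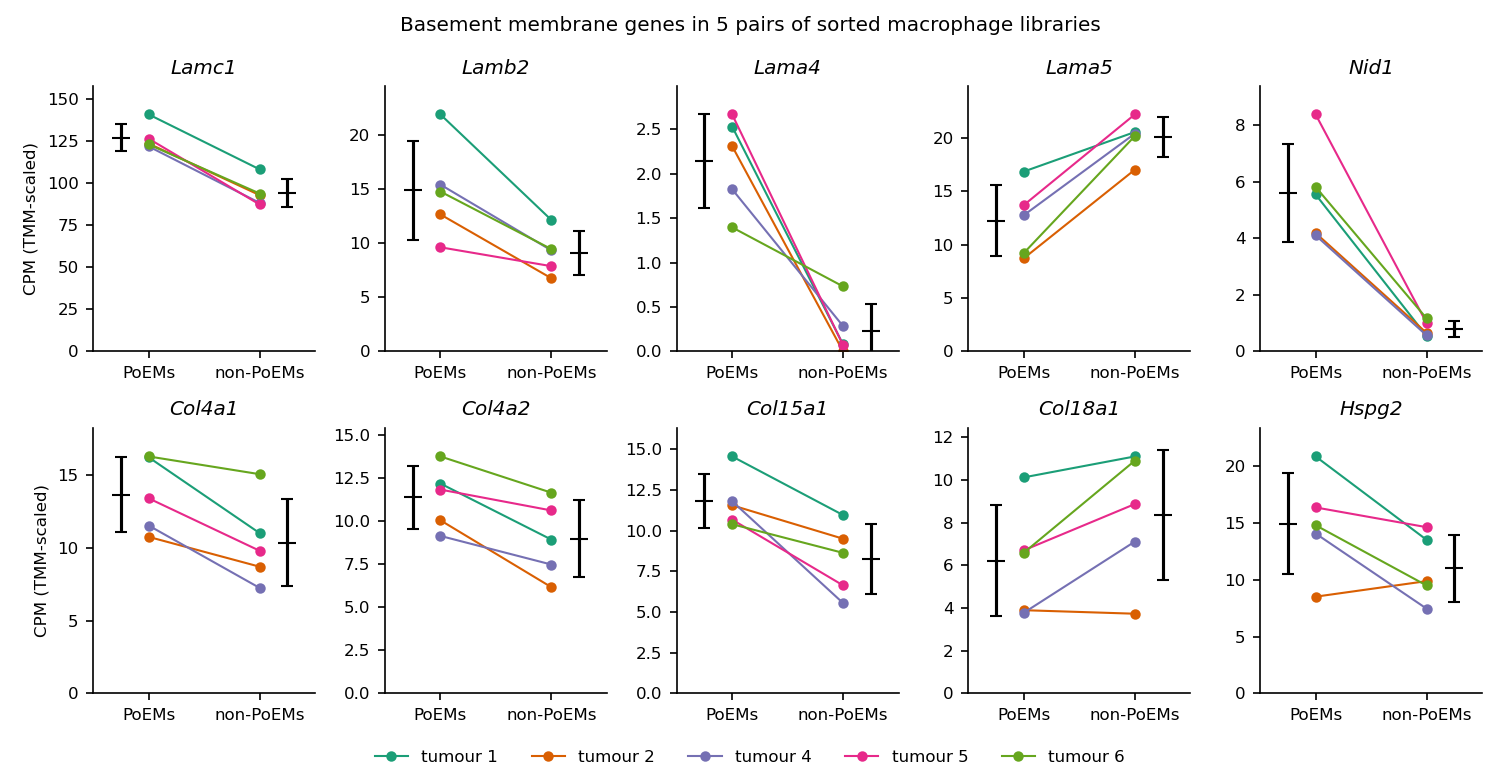
CPM of each gene (y axis, from 0, a separate scale per panel) in PoEMs (left) and non-PoEMs (right), with a line for each of the 5 tumours and black bars for the mean ± SD of 5 libraries. The lines for Lama5 run from low in PoEMs to high in non-PoEMs in all 5 tumours, while those for Lamc1, Lamb2, Lama4 and Nid1 run the other way.

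Lamc1 (ENSMUSG00000026478; chromosome 1, 153218922 to 153332786, minus strand) encodes gamma 1, the gamma chain of most laminins. All gene positions here are those of GENCODE M21 on GRCm38. In the PoEM libraries of tumours 1, 2, 4, 5 and 6 it stood at 140.7, 123.4, 121.7, 126.3 and 122.9 CPM, against 108.1, 92.8, 88.2, 87.2 and 93.8 CPM in the non-PoEM libraries of the same tumours. Every PoEM library lay above every non-PoEM library, and tumour 1 was the highest of its fraction both times. The fitted level was 1.35-fold in PoEMs (log2 fold change 0.43 ± 0.07 SE, adjusted p = 0.0013 by edgeR), and the 5 within-tumour ratios, from 1.303 to 1.448, were the least dispersed of the 10 genes.

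Lamb2 (ENSMUSG00000052911; chromosome 9, 108479736 to 108490530, plus strand) encodes beta 2, the laminin beta chain found in vessel walls, kidney glomeruli and neuromuscular junctions. Its levels were 21.9, 12.6, 15.4, 9.60 and 14.7 CPM in PoEMs of tumours 1, 2, 4, 5 and 6, against 12.1, 6.75, 9.32, 7.86 and 9.43 CPM in non-PoEMs. The fractions overlapped through the low PoEM library of tumour 5 and the high non-PoEM library of tumour 1, but PoEMs were higher within each tumour, by 1.22-fold to 1.87-fold. The log2 fold change was 0.71 ± 0.21 SE with edgeR adjusted p = 0.0446 without the block, and 0.69 ± 0.10 SE with adjusted p = 0.000135 with it. The call without the block was lost when any of 8 of the 10 libraries was left out (PoEMs of tumours 1, 2, 4 or 6, non-PoEMs of tumours 2, 4, 5 or 6; adjusted p up to 0.107), whereas the blocked call held without any of the 5 tumours (adjusted p up to 0.00169).

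Lama4 (ENSMUSG00000019846; chromosome 10, 38965515 to 39110188, plus strand) encodes alpha 4, an alpha chain typical of endothelial, muscle and fat basement membranes. It was scarce: PoEMs of tumours 1, 2, 4, 5 and 6 gave 36, 32, 28, 35 and 18 counts, against 1, 0, 4, 1 and 10 counts in non-PoEMs. The 0 in non-PoEMs of tumour 2 allows up to 3 counts, or 0.197 CPM, from counting error alone. In CPM, PoEMs held 2.53, 2.31, 1.83, 2.67 and 1.396, against 0.0782, 0, 0.284, 0.0721 and 0.731 in non-PoEMs. The ranges did not overlap, and tumour 6 had both the lowest PoEM and the highest non-PoEM value, with a ratio of 1.91. The fitted difference was 9.005-fold (log2 3.17 ± 0.52 SE, adjusted p = 0.00179 by edgeR), and it lay between 2.83 and 4.21 on the log2 scale as each library was left out. The value of 4.21 came without the non-PoEM library of tumour 6, which held 10 of the 16 non-PoEM counts.

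Lama5 (ENSMUSG00000015647; chromosome 2, 180176373 to 180225859, minus strand) encodes alpha 5, the alpha chain widespread in adult epithelial and endothelial basement membranes. It was the laminin gene with the opposite sign. PoEMs of tumours 1, 2, 4, 5 and 6 held 16.9, 8.74, 12.8, 13.7 and 9.23 CPM, against 20.6, 17.03, 20.4, 22.2 and 20.2 CPM in non-PoEMs. The highest PoEM library, of tumour 1, lay just under the lowest non-PoEM library, of tumour 2. Lama5 fell to 0.612-fold in PoEMs (log2 fold change -0.71 ± 0.16 SE, edgeR adjusted p = 0.0126; with the block -0.73 ± 0.11 SE, adjusted p = 0.00022), and the calls held whichever library or tumour was left out. The PoEM libraries were the more uneven, with an SD of 3.36 CPM beside 1.88 CPM in non-PoEMs.

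Nid1 (ENSMUSG00000005397; chromosome 13, 13437551 to 13512269, plus strand) encodes nidogen 1, which binds the laminin gamma 1 chain and type IV collagen. Its levels were 5.55, 4.19, 4.11, 8.38 and 5.82 CPM in PoEMs of tumours 1, 2, 4, 5 and 6, against 0.547, 0.655, 0.569, 1.01 and 1.17 CPM in non-PoEMs. The lowest PoEM library was well above the highest non-PoEM library, and the within-tumour ratio ran from 4.97 in tumour 6 to 10.1 in tumour 1. The fitted difference was 7.01-fold (log2 fold change 2.81 ± 0.27 SE, adjusted p = 4.02e-05 by edgeR), and it stayed called without each library in turn. An annotated antisense gene, Gm48682, shares 143 bases of Nid1 exons, and no source used here says whether strand was used in counting.

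**Figure D2:**
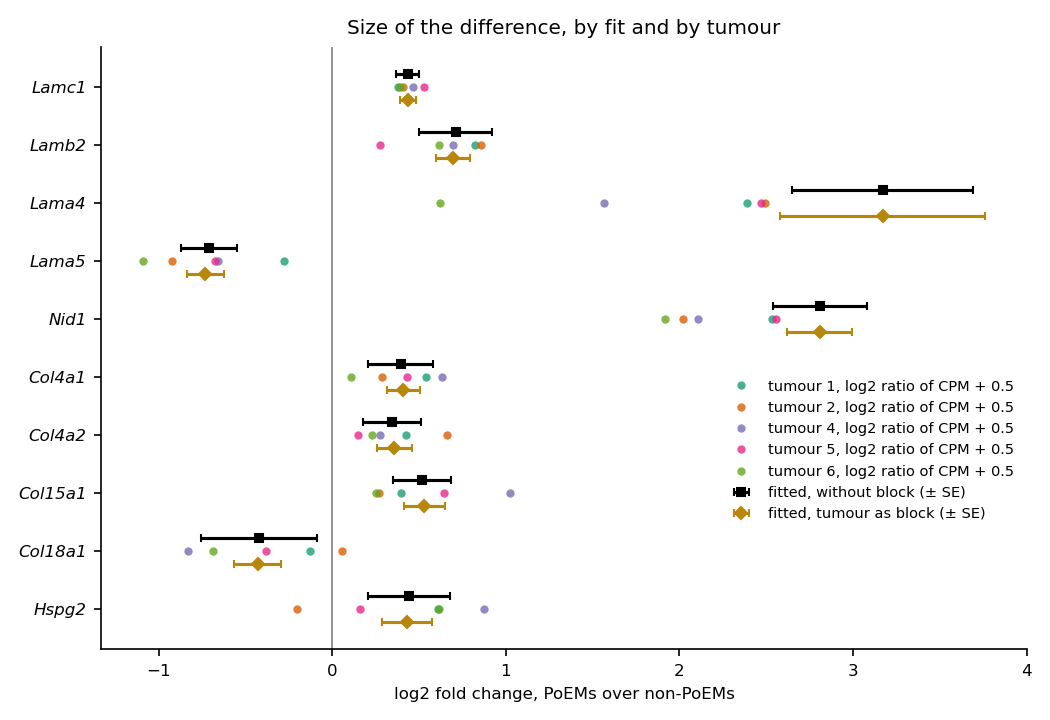
Log2 fold change, PoEMs over non-PoEMs (x axis), for each gene (rows), as fitted without the block (black squares, ± SE), as fitted with tumour as a block (gold diamonds, ± SE), and as the log2 ratio of CPM + 0.5 in each tumour (coloured dots). Nid1 and Lama4 stand far to the right at 2.81 and 3.17, Lama5 stands left of 0 in all tumours, and the 0.5 CPM added to each level pulls the dots of Lama4 and Nid1 towards 0.

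Col4a1 and Col4a2 encode the alpha 1 and alpha 2 chains that make up the common type IV collagen heterotrimer. The genes lie head to head on chromosome 8, Col4a1 (ENSMUSG00000031502) from 11198423 to 11312826 on the minus strand and Col4a2 (ENSMUSG00000031503) from 11312805 to 11449287 on the plus strand. Their annotated starts are 21 bases apart, and their first exons overlap by 22 bases on opposite strands. These bases, chr8:11312805-11312826 of GRCm38.p6 as given by RefSeq promoter sequences, are shown because both start sites lie in them; each is written 5′ to 3′ on the gene's own strand, with the gene's start site in capitals.
Col4a1: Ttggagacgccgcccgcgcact
Col4a2: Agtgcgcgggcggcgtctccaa
RefSeq windows of 300 bases around the starts (250 before, 50 after) were at hand for 8 of the 10 genes, not for Lama4 and Lamc1. The windows of Col4a1 and Col4a2 share 78 bases with a GC content of 73.1%. On either strand, the letters GGGCGG, the core bound by Sp1-type factors, were found for 6 of the 8 genes, counting any window of a gene. Of 32851 single windows of all genes 35.7% held them, a share per window rather than per gene. The bases that both collagen IV windows share held 1 match, the only match in the Col4a1 window. The letters CCAAT were found for 4 of the 8 genes (37.4% of all windows), both collagen IV genes among them, and TATAAA for 0 of the 8 (13.6% of all windows).

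The collagen IV transcripts had similar levels and fitted differences, although their within-tumour ratios ran in opposite order in tumours 2 and 4 (Col4a1 1.24 and 1.59, Col4a2 1.63 and 1.22). Col4a1 had 16.2, 10.8, 11.5, 13.4 and 16.3 CPM in PoEMs of tumours 1, 2, 4, 5 and 6, against 11.02, 8.71, 7.25, 9.81 and 15.1 CPM in non-PoEMs. Col4a2 had 12.2, 10.03, 9.13, 11.8 and 13.7 CPM in PoEMs, against 8.91, 6.16, 7.47, 10.6 and 11.6 CPM in non-PoEMs. For both genes tumour 6 was the highest and tumours 2 and 4 were the lowest in each fraction, the fractions overlapped, and PoEMs were higher within all 5 tumours, by 1.08-fold to 1.59-fold for Col4a1 and by 1.11-fold to 1.63-fold for Col4a2. Without the block neither was called (Col4a1 log2 fold change 0.40 ± 0.19 SE, edgeR adjusted p = 0.189; Col4a2 0.35 ± 0.17 SE, adjusted p = 0.204). With the tumour as a block both were called higher, Col4a1 at 0.41 ± 0.10 SE (edgeR adjusted p = 0.00568) and Col4a2 at 0.36 ± 0.10 SE (adjusted p = 0.0157). The blocked call of Col4a1 held without any tumour; that of Col4a2 was lost without tumour 1 or tumour 2 (adjusted p up to 0.0754) and in DESeq2 with the block (adjusted p = 0.116).

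Col15a1 and Col18a1 encode the multiplexins, collagens with heparan or chondroitin sulfate chains at the border between basement membrane and stroma, and Col18a1 carries the fragment endostatin, an inhibitor of vessel growth. Their signs differed. Col15a1 (ENSMUSG00000028339; chromosome 4, 47208161 to 47313167, plus strand) had 14.6, 11.6, 11.8, 10.7 and 10.4 CPM in PoEMs of tumours 1, 2, 4, 5 and 6, against 10.95, 9.50, 5.55, 6.63 and 8.63 CPM in non-PoEMs. Only the non-PoEM library of tumour 1 reached into the PoEM range, and the ratio within a tumour was largest in tumour 4, at 2.13. The log2 fold change was 0.52 ± 0.17 SE without the block (edgeR adjusted p = 0.0602) and 0.53 ± 0.12 SE with it (adjusted p = 0.00432); without the non-PoEM library of tumour 1 the unblocked fit called it too (adjusted p = 0.0205).

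Col18a1 (ENSMUSG00000001435; chromosome 10, 77052178 to 77166548, minus strand) had a wide spread between tumours, at 6.22 ± 2.59 CPM in PoEMs and 8.34 ± 3.05 CPM in non-PoEMs (SD, n = 5 each). PoEMs of tumours 1, 2, 4, 5 and 6 held 10.1, 3.90, 3.78, 6.71 and 6.59 CPM, against 11.1, 3.73, 7.11, 8.87 and 10.9 CPM in non-PoEMs. Tumour 1 was the highest in both fractions, the fractions overlapped widely, and PoEMs were lower in 4 of the 5 tumours. The log2 fold change of -0.42 ± 0.33 SE was not called without the block (edgeR adjusted p = 0.455). With the block it was -0.43 ± 0.14 SE and called (adjusted p = 0.0313), a call that was lost without tumour 4, 5 or 6 (adjusted p up to 0.108) and in DESeq2 with the block (adjusted p = 0.133).

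Hspg2 (ENSMUSG00000028763; chromosome 4, 137468769 to 137570630, plus strand) encodes perlecan, the large proteoglycan that holds growth factors in basement membranes. It had 20.9, 8.52, 14.1, 16.4 and 14.8 CPM in PoEMs of tumours 1, 2, 4, 5 and 6, against 13.5, 9.89, 7.47, 14.6 and 9.51 CPM in non-PoEMs. PoEMs were higher in 4 tumours and lower in tumour 2, which held the lowest PoEM library, and the fractions overlapped. The log2 fold change of 0.44 ± 0.24 SE was not called without the block (edgeR adjusted p = 0.251). With the block it was 0.43 ± 0.14 SE at an adjusted p of 0.0465, and that call was lost without tumour 1, 4, 5 or 6 (adjusted p up to 0.152) and in DESeq2 with the block (adjusted p = 0.064).

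Levels of different genes were compared as CPM per kilobase of annotated exons. Lamc1 led in both fractions by a wide margin, with a level of 15.4 ± 0.95 CPM per kb in PoEMs and 11.4 ± 1.01 CPM per kb in non-PoEMs (SD, n = 5 each). It made up 56.7% ± 3.08 of the summed level of the 10 genes in PoEMs and 55.0% ± 3.66 in non-PoEMs. After it in PoEMs came Lamb2 at 2.44, Col15a1 at 1.86, Col4a1 at 1.83, Col4a2 at 1.72, Lama5 at 1.08, Hspg2 at 1.04, Col18a1 at 0.886, Nid1 at 0.808 and Lama4 at 0.178 CPM per kb, and between Lamb2 and Nid1 each gene overlapped its neighbour in range. Non-PoEMs had Lama5 second, at 1.76 CPM per kb, then Lamb2 at 1.495, Col4a1 at 1.39, Col4a2 at 1.35, Col15a1 at 1.299, Col18a1 at 1.19, Hspg2 at 0.769, Nid1 at 0.114 and Lama4 at 0.0193. There the neighbours from Lama5 to Hspg2 overlapped, and Nid1 and Lama4 each lay below every library of the gene above. Lama5 thus stood sixth in PoEMs and second in non-PoEMs, with 3.93% ± 0.78 of the summed level in PoEMs and 8.55% ± 1.02 in non-PoEMs. The order depends on the length used. With the longest transcript as length, Lama5 had rank 7 in PoEMs. In non-PoEMs the lowest Nid1 library, at 0.0899 CPM per kb, then lay under the highest Lama4 library, at 0.121.

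**Figure D3:**
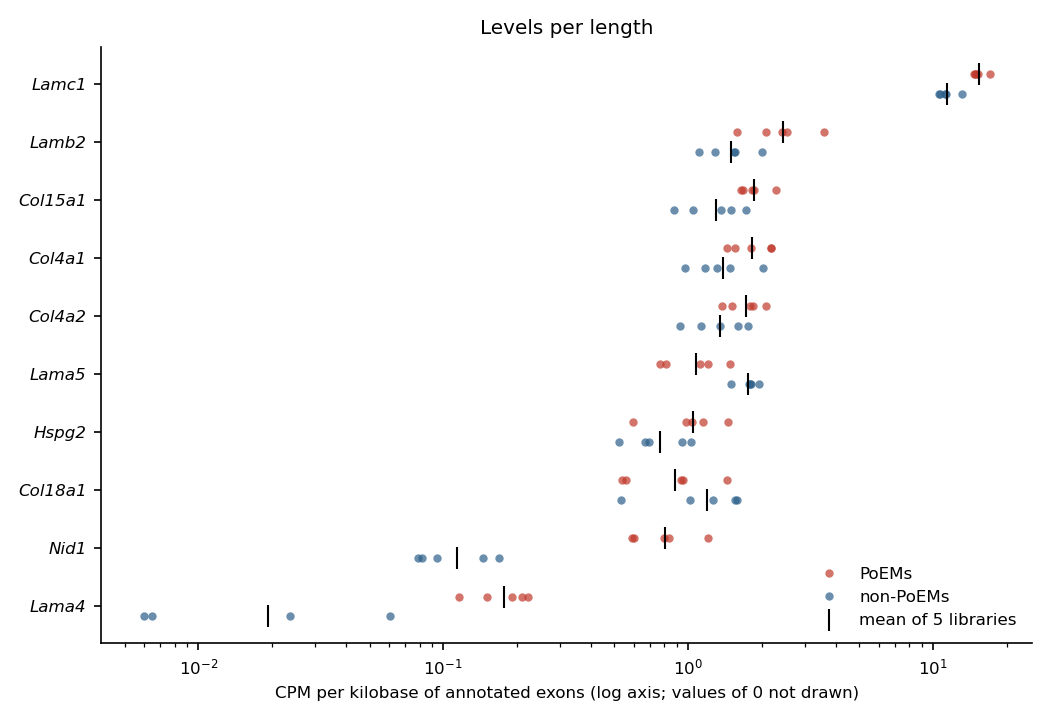
Level of each gene in CPM per kilobase of annotated exons (x axis, log scale) in each PoEM library (red, upper row of a pair) and non-PoEM library (blue, lower row), with black ticks at the means of 5 libraries. Lamc1 stands apart near 15.4 and 11.4, Nid1 and Lama4 stand apart at the low end in non-PoEMs, and the other genes crowd together; the value of 0 for Lama4 in non-PoEMs of tumour 2 is not drawn.

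Ratios between chains within a library showed which laminin components shifted against each other. The Lama4 level was 0.170 ± 0.048 of the Lama5 level in PoEMs, against 0.0108 ± 0.0140 in non-PoEMs (per kb, SD, n = 5 each), with PoEM libraries from 0.135 to 0.250 and non-PoEM libraries from 0 to 0.0342. With the longest transcript as length, the same ratio was 0.340 ± 0.096 in PoEMs and 0.0216 ± 0.0279 in non-PoEMs. Lama5 was thus the more abundant of these alpha chain transcripts in every library of both fractions. Lama5 relative to Lamc1 ran from 0.0514 to 0.0870 in PoEMs and from 0.133 to 0.185 in non-PoEMs, also without overlap. The ratio of Lamb2 to Lamb1, the gene of the other common beta chain, was 2.23 ± 0.44 in PoEMs and 1.33 ± 0.26 in non-PoEMs; it was higher in PoEMs within each tumour, and the PoEM library of tumour 5, at 1.46, lay inside the non-PoEM range of 1.01 to 1.59. Lamb1 itself stood at 10.8 ± 1.82 CPM in PoEMs and 11.2 ± 1.57 CPM in non-PoEMs (log2 fold change -0.05 ± 0.13 SE, edgeR adjusted p = 0.829). Nid1 relative to Lamc1 was 0.0526 ± 0.0162 in PoEMs and 0.0102 ± 0.0039 in non-PoEMs.

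Ratios among the collagen and perlecan transcripts overlapped between the fractions. The ratio of Col4a2 to Col4a1 was 0.946 ± 0.082 in PoEMs and 0.992 ± 0.187 in non-PoEMs, near equal levels in both. Hspg2 relative to Col4a1 was 0.567 ± 0.115 in PoEMs and 0.576 ± 0.164 in non-PoEMs. Col15a1 relative to Col18a1 was 2.36 ± 0.92 in PoEMs and 1.29 ± 0.86 in non-PoEMs, with overlapping ranges. These ratios depend on the transcript length used, and no test was made of them.

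**Figure D4:**
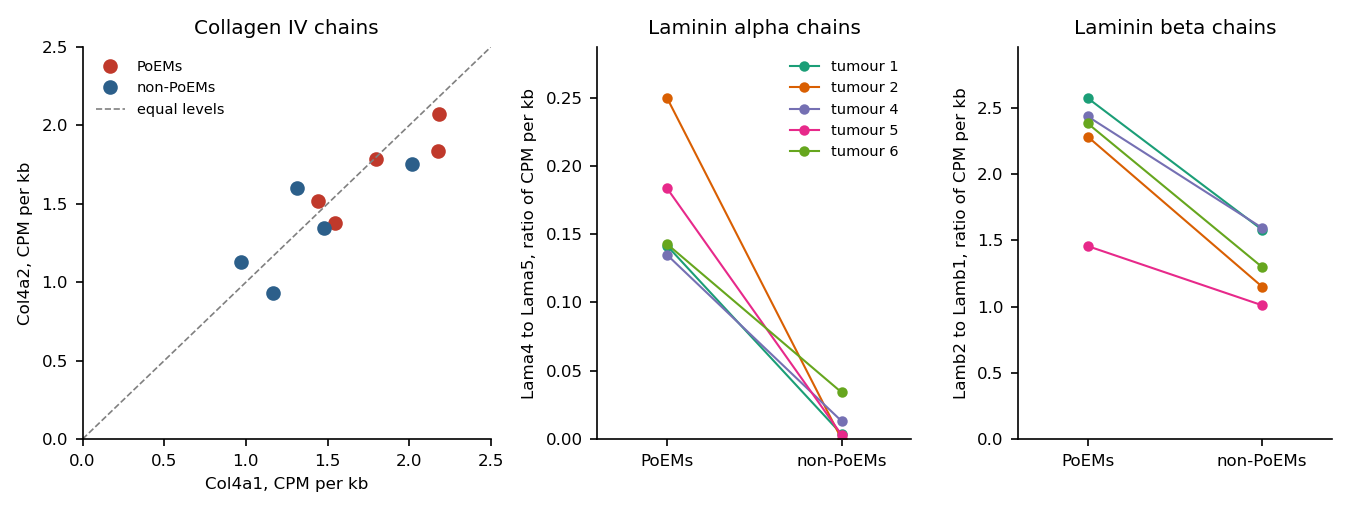
Left, level of Col4a2 against Col4a1 in each library (CPM per kb; red PoEMs, blue non-PoEMs), which scatter around the dashed line of equal levels. Middle and right, ratios of Lama4 to Lama5 and of Lamb2 to Lamb1 (CPM per kb) in PoEMs and non-PoEMs with a line per tumour; both ratios are higher in PoEMs in all 5 tumours.

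Of 26 further basement membrane genes listed, 11 passed the filter, and 1 was called higher and 1 lower, near the shares of 6.83% and 6.77% called over all genes; Vwa1, a small matrix protein of basement membranes, was higher in PoEMs (log2 fold change 1.21 ± 0.28 SE, adjusted p = 0.0147 by edgeR) and Agrn, the proteoglycan agrin, was lower (-0.27 ± 0.06 SE, adjusted p = 0.0158). Their median log2 fold change was -0.24, and with the block 2 were called higher and 5 lower. The other nidogen gene, Nid2, averaged 25.9 ± 9.51 CPM in PoEMs and 18.3 ± 6.43 CPM in non-PoEMs, a log2 fold change of 0.50 ± 0.32 SE with edgeR adjusted p = 0.35 without the block and 0.013 with it. Lamb3, a laminin beta chain gene typical of epithelium, had a log2 fold change of -0.99 and was not called without the block (edgeR adjusted p = 0.0998) but was called lower with it (0.00575). Nid2, Lamb1 and Lamb3 are named as partners of the 10 genes, chosen after their values were seen. The 15 genes below the filter, Col4a3 to Col4a6, Lama1 and Lama2 among them, had between 0 and 61 counts over all 10 libraries. Of these, Lama2, the alpha 2 chain gene, had 42 counts in PoEMs and 3 in non-PoEMs, and Hmcn1 had 28 in PoEMs and 1 in non-PoEMs. Smoc2 had 9 in PoEMs and 0 in non-PoEMs, few counts over 5 libraries each. Counts were lower in PoEMs for Smoc1 (2 against 8), Lamc3 (4 against 5) and Col4a6 (0 against 1), and Col4a5 had 25 against 21. Without a filter edgeR called 4 of the 26 higher and 1 lower, and DESeq2 called 3 higher and 2 lower.

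Genes listed for basement membrane assembly, most of them for the folding, modification or cross-linking of collagens, leaned towards PoEMs. Of 16 tested, 8 were called higher, where 6.83% of all genes were. With the block 10 were called higher, where 13.8% of all genes were. Their median log2 fold change was 0.35. By edgeR 0 were called lower in either fit, 0 had an unadjusted p under 0.05 in that direction, and DESeq2 called 0. With tumour 6 left out, the blocked fit called 2 lower. Loxl2, an oxidase that cross-links type IV collagen, averaged 2.46 ± 0.61 CPM in PoEMs and 0.247 ± 0.087 CPM in non-PoEMs (log2 fold change 3.28 ± 0.31 SE, edgeR adjusted p = 3.17e-05). Sparc, which encodes a collagen-binding matricellular protein, averaged 39.3 ± 8.50 CPM in PoEMs and 9.23 ± 0.84 CPM in non-PoEMs. The prolyl hydroxylase subunit gene P4ha2 was higher by 1.90 on the log2 scale, and Serpinh1, the gene of the collagen chaperone HSP47, by 1.10 (edgeR adjusted p = 0.000175 and 3.87e-05). Pxdn, whose peroxidase forms sulfilimine cross-links in type IV collagen, had a log2 fold change of 0.34 ± 0.25 SE and was not called.

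Proteases and inhibitors of the matrix had 6 of 14 tested genes higher, 9 with the block; 0 were lower by edgeR in either fit, at an unadjusted p under 0.05 or by DESeq2. The median log2 fold change was 0.67. Mmp12, the macrophage elastase gene, averaged 1099 ± 280.6 CPM in PoEMs and 164.3 ± 72.2 CPM in non-PoEMs (log2 fold change 2.74 ± 0.30 SE, edgeR adjusted p = 0.000363). Mmp2, a gelatinase that cuts type IV collagen, was higher by 1.85 on the log2 scale, Mmp3 by 1.20, and the matrix-bound inhibitor gene Timp3 by 2.47 (edgeR adjusted p = 0.000135, 0.00488 and 0.00413). The receptor list gave 1 of 10 tested genes higher and 1 lower, with a median of -0.23, and 1 higher and 3 lower with the block. Over all genes 6.83% were called higher and 6.77% lower, and 13.8% and 14.3% with the block. Dag1, the dystroglycan gene whose product binds laminin, was higher by 0.26 (edgeR adjusted p = 0.0198), a call lost without PoEMs of tumour 1 or non-PoEMs of tumour 2. The collagen receptor integrin gene Itga2 had a log2 fold change of -1.37 (adjusted p = 0.0129).

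Most fibrillar collagens and fibroblast markers tested were higher in PoEMs. Of 8 fibrillar collagen genes tested, 6 were higher in PoEMs and 1, Col27a1, was lower, with a median log2 fold change of 3.93; among them were Col1a1 (3.95), Col1a2 (4.03), Col5a1 (2.81) and Col5a2 (3.91), all beyond the changes of the 10 genes other than Lama4 and Nid1. Fibroblast markers, which include Col1a1, Col1a2 and Col3a1, were higher for 11 of 14 tested; by edgeR 0 were lower, 0 at an unadjusted p under 0.05 and 0 by DESeq2. Their summed level over 15 markers was 313.3 to 496.8 CPM in PoEMs and 46.9 to 81.9 CPM in non-PoEMs, and Tcf21 had 0 counts in all libraries. Most of the PoEM sum was Col3a1, Col1a1 and Col1a2, at 140.6, 121.9 and 79.7 CPM on average, so it largely repeats the fibrillar collagens. Fap, Pi16 and Twist1 were not called (log2 fold change -0.12, 0.43 and -0.08, edgeR adjusted p = 0.88, 0.315 and 0.867). Over all genes tested, 6.83% were called higher and 6.77% lower. Dcn, the decorin gene and a stromal marker, averaged 5.55 ± 2.35 CPM in PoEMs and 0.678 ± 0.281 CPM in non-PoEMs. The other called fibroblast markers outside the collagens were Lum, Mfap5, Prrx1, Pdgfra, Thy1, Dpt and Pdgfrb. Their log2 fold changes without the block were 3.32, 2.81, 1.70, 1.66, 1.64, 1.60 and 0.88. In bulk libraries a larger number of cells of a type and more RNA per cell cannot be told apart, and the part of fibroblast RNA in the levels of Nid1, Lama4 and the other genes was not tested.

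Markers of the cells that line and wrap vessels differed less. Of 13 blood endothelial markers, 5 passed the filter and 0 were called by edgeR without the block, 0 at an unadjusted p under 0.05 and 0 by DESeq2, with summed levels of 104.8 to 280.9 CPM in PoEMs and 89.4 to 206.7 CPM in non-PoEMs, most of it Pecam1, which macrophages also express. With the block edgeR and DESeq2 each called 1 endothelial marker, higher. Pecam1, at 156.0 ± 72.6 CPM in PoEMs and 112.0 ± 43.4 CPM in non-PoEMs, had an edgeR adjusted p of 0.451 without the block and 0.000147 with it. Cdh5, the endothelial cadherin gene, stood at 4.72 ± 1.28 CPM in PoEMs and 5.04 ± 1.41 CPM in non-PoEMs, and Tek, Emcn, Cldn5 and Robo4 had between 1 and 11 counts per fraction. Of the lymphatic markers, Lyve1, which macrophages also express, and Flt4 were tested and 0 were called by edgeR (adjusted p = 0.774 and 0.691), 0 at an unadjusted p under 0.05 and 0 by DESeq2, with summed levels of 107.3 to 237.6 CPM in PoEMs and 57.6 to 226.1 CPM in non-PoEMs. Of 11 pericyte and smooth muscle markers 5 were tested, and Acta2 and Tagln were called higher (log2 fold change 1.33 and 1.46, edgeR adjusted p = 0.0109 and 0.00147). By edgeR and by DESeq2 0 were called lower, 1 was lower at an unadjusted p under 0.05, and with the block edgeR called 2 higher and 1 lower. The lower one was the pericyte gene Rgs5 (log2 fold change -0.94 ± 0.30 SE, adjusted p = 0.0577 by edgeR, and 0.0358 with the block), and Cspg4, another pericyte gene, had -0.28 ± 0.38 SE (adjusted p = 0.678). The list had summed levels of 10.4 to 18.3 CPM in PoEMs and 8.15 to 10.4 CPM in non-PoEMs. Their part in the basement membrane levels was not tested. Over all genes tested, 6.83% were called higher and 6.77% lower, and 13.8% and 14.3% with the block.

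Markers of cells other than fibroblasts and vessel cells were set beside Lama5. Of 8 tested epithelial and tumour markers 0 were called by edgeR without the block and 0 by DESeq2. At an unadjusted p under 0.05, 2 were lower, and the median log2 fold change was -0.25. The list had summed levels of 99.2 to 264.8 CPM in PoEMs and 84.9 to 217.7 CPM in non-PoEMs, higher in PoEMs in all 5 tumours. Most of the mean sum was Cdh1, at 124.0 ± 65.1 CPM in PoEMs and 75.9 ± 46.8 CPM in non-PoEMs. Epcam averaged 2.14 ± 0.67 CPM in PoEMs and 3.32 ± 0.58 CPM in non-PoEMs (edgeR adjusted p = 0.0889, and 0.0356 with the block). With the block edgeR called 1 of these markers, Cdh1, higher and 2 lower, and DESeq2 1 higher and 0 lower. Monocyte markers were lower for 2 of 6, with summed levels of 456.6 to 681.7 CPM in PoEMs and 960.1 to 1505 CPM in non-PoEMs, Ccr2 and Ly6c2 being the called genes. Neutrophil markers were lower for 6 of 7 and higher for 1, Mmp8, with sums of 118.9 to 147.0 CPM in PoEMs and 218.6 to 292.5 CPM in non-PoEMs. Eosinophil markers were lower for 3 of 4, with sums of 2.53 to 7.60 CPM in PoEMs and 26.9 to 62.3 CPM in non-PoEMs. The part of these cells in the Lama5 difference was not tested. Over all genes tested, 6.83% were called higher and 6.77% lower, and 13.8% and 14.3% with the block.

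Genes whose within-tumour log2 ratios lay nearest to those of Col4a1 and Lama5 were sought among 9004 genes whose log2 CPM averaged 3 or more, by the root mean square difference over the 5 tumours. For Col4a1 they were Tmsb10 (0.07), Rnf126 (0.08), Pold1 (0.09), Tmem237 (0.09) and Ercc6 (0.10). Of the other members of the 10, Lamc1 was the nearest to Col4a1 at 0.18, Col15a1 followed at 0.22 and Col4a2 at 0.27. For Lama5 they were Isg15 (0.19), Map3k9 (0.20), Cdc14a (0.20), Ly6e (0.21) and Nfkbie (0.21), and Col18a1 was the nearest of the 10 at 0.50.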

How the data were processed

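The authors deposited raw read counts per gene, with Ensembl identifiers and gene names, for 10 libraries made from sorted cells by SMART-Seq pre-amplification, per the labels' protocols. The submitters' processing notes name featureCounts 1.5.3, STAR 2.5.2b, Bowtie2 2.3.3.1 and cutadapt 1.15, with no role; the build, strand setting and handling of multi-mapping reads are not given in the sources read here. Counts are reads without molecular identifiers, so floors cover counting error only. Groups came from the labels, and 0 rows lacked a gene. Libraries of the same group differed beyond sampling noise (chi-square per gene at least 7.08).

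Counts were filtered by edgeR 4.0.16 in R 4.3.3 (filterByExpr by group, minimum count 10, minimum total 15), scaled with TMM and tested with glmQLFit and glmQLFTest (robust), group as the only term; the common biological coefficient of variation was 13.3%. CPM are relative to the library total times the TMM factor. The SE is the absolute log2 fold change over the square root of the F statistic. Same-numbered libraries came from the same tumour per the labels, and their deviations from the group means correlated at 0.249 to 0.528, against at most 0.109 with other tumours, so blocked values are given. The alternatives were this replicate block, DESeq2 1.42.0 as test and as scaling, library size alone, no filter, each library or tumour left out, and another gene length. Scripts were checked on simulated data.

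GENCODE M21 matched 46005 identifiers; lengths are merged annotated exons. Ccl21a, on more than 1 row, was left out. The members and lists were chosen with earlier results of these data known. Besides the 10 genes, a rule marked up to 4 called genes of each list by lowest p for naming (2 where none was called). It also marked Pdpn, Itgam, Adgre1 and Ptprc, and the 5 genes nearest to Col4a1 and Lama5 (CPM + 0.5, predicted genes apart). Not all marked genes are given here, S100a8, S100a9, Retnlg, Siglecf, Tie1 and Cldn4 among those left out. Nid2, Lamb1, Lamb3, Pxdn, Col27a1, Fap, Pi16, Twist1, Cdh5, Tek, Emcn, Cldn5, Robo4, Rgs5, Cspg4, Cdh1 and the list genes named as below the filter fall outside that rule and were chosen after their values were seen. The same holds for Lum, Mfap5, Prrx1, Pdgfra, Thy1, Dpt and Pdgfrb.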

Additional observations from a re-analysis of the deposited data

Results flagged for a closer look

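Of 20 groups of 5 libraries examined, each gene in each fraction, 1 held a library far from the others. Lamc1 in PoEMs of tumour 1 stood at 140.7 CPM, and its gap to the nearest of the other PoEM libraries was 0.759 of the group's range, above Dixon's critical value of 0.71. Chance flags about 1 in 20 groups. The non-PoEM library of tumour 1 was also the highest of its fraction, at 108.1 CPM, and Lamc1 stayed called higher in PoEMs without either library.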

How the results depend on the processing

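Over 21 alternatives to the fit, no gene of the 10 changed sign; of their log2 fold changes under these, 174 kept their side of the threshold, 26 became called and 10 were no longer called. Lamc1, Nid1, Lama4 and Lama5 were called under all 21. The replicate block called 1880 genes higher and 1950 lower, against 929 and 920 without it, and 8 of the 10 genes higher and 2 lower, against 4 and 1. DESeq2 with the block called 1401 genes lower, and did not call Col4a2, Col18a1 or Hspg2 (adjusted p = 0.116, 0.133 and 0.064). DESeq2 without the block called Col15a1 (adjusted p = 0.0367), and Lamb2 was not called with library size alone (0.0524) or without a filter (0.0867). Leaving out each library gave 617 to 1047 genes higher and 576 to 1026 lower, with 3 to 5 of the 10 genes higher and 1 lower; the lowest counts came without PoEMs of tumour 4 (617 higher, 588 lower) and non-PoEMs of tumour 2 (576 lower). Leaving out tumours 1, 2, 4, 5 and 6 in turn from the blocked fit gave 1505, 1360, 1447, 1398 and 1925 genes higher and 1692, 1380, 1677, 1564 and 2016 lower, with 6 to 7 of the 10 higher and 1 to 2 lower. The cause of these shifts was not tested. With the longest transcript as length, Lama4 in PoEMs stood at 0.355, Col15a1 at 2.28 and Lamc1 at 16.7 CPM per kb, and the ratio of Lamb2 to Lamb1 at 1.403 in PoEMs and 0.836 in non-PoEMs. No member fell below the filter, so the alternatives for such genes could not be applied. Depth limits Lama4 most, with 16 counts over 5 non-PoEM libraries.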
